A study of Mus musculus with 10 samples.

Results

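Granins and the enzymes that process prohormones were described in the islets of 5-week-old female mice, 5 heterozygous for Men1 and 5 being their wildtype littermates, with C57 on a 129 background as the strain of all 10. The product of Men1 is menin, whose inherited loss causes tumours of endocrine glands, islets included. About 100 islets pooled from each mouse gave 1 RNA sample, which was run on 1 Affymetrix array, so the replicates are separate mice. The members were 10 genes, Chga, Chgb, Scg2, Scg3, Vgf, Pcsk1, Pcsk1n, Scg5, Cpe and Pam. They were found as all probe sets (groups of short probes that read 1 transcript) whose annotation symbol is one of these names, which gave 11 of the 45037 probe sets on the array and 10 of its 18193 named genes. A probe set was tested when 5 or more of the 10 arrays exceeded 4 on the log2 scale, which held for 10 of these 11, 1 for each gene, and for 18567 in all. A further Cpe probe set lay at background, between 1.51 and 1.56 on every array. The labels do not describe how the Men1 allele was made or which part of the gene it lacks.

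Endocrine cells keep peptide hormones in dense-core granules until a stimulus releases them. Granins are acidic proteins that bind calcium and hormones in the trans-Golgi network and help the granule to form, and several of them are themselves cut into peptides. Prohormones are cut after pairs of basic residues by convertases such as PC1/3, the product of Pcsk1. The exposed basic residues are then trimmed by carboxypeptidase E, the product of Cpe, and some peptides are amidated by the product of Pam. In beta cells this route turns proinsulin into insulin, and chromogranin A, the product of Chga, is a widely used serum marker of endocrine tumours.

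Several granin promoters are known to respond to cAMP through a short palindromic element, and they are shown here to place the members' regulatory sequence beside their levels. RefSeq promoter windows (assembly GRCm38.p6), which run from 250 bases before to 50 after an annotated start, were found for 8 of the 10 members, all except Vgf and Cpe. The full cAMP response element TGACGTCA stood in the windows of 3 of these 8 genes, Scg2, Chgb and Pcsk1. Among all 27025 genes with windows 2.03% held it on either strand. Its 5-base core TGACG stood in 6 of the 8 genes, the 3 above (where it overlaps the full element), Chga, Scg3 and Scg5, and in 23.0% of all genes. An E-box (CANNTG) stood in 6 of the 8 genes and in 75.0% of all genes, the same share. In the stretches that follow, written 5′ to 3′ on the gene's strand and ending at or before the annotated start, capitals mark the full element or the core.
Scg2 (chr1:79440027-79440176, minus strand): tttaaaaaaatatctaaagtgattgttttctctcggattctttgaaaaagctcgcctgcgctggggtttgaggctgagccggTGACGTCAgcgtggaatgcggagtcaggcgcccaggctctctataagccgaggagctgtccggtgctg
Chgb (chr2:132781492-132781641, plus strand): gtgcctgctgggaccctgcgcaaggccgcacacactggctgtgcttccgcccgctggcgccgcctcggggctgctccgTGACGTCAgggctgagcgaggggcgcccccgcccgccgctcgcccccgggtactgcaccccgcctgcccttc
Pcsk1 (chr13:75089768-75089797, plus strand): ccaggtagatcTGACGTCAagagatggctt
Chga (chr12:102554884-102554913, plus strand): gggggcggtcctaTGACGtaatttcctggg
Scg3 (chr9:75684070-75684099, minus strand): agcgctgggtcgcTGACGccatcctcacgc
Scg5 (chr2:113829250-113829279, minus strand): taaaggaggtaaaTGACGttcataggggtc
The full element began 68 bases before the start of Scg2, 72 before that of Chgb and 78 before that of Pcsk1, so that the 3 lay at similar distances. The starts used for Pcsk1, Scg3 and Pam lie inside the annotated gene, not at its outer edge. These matches describe the letters of the windows, and the arrays did not measure binding. Whether they bear on the variation between mice was not tested. Pam, in no pair that passed by r below, has a window, while Cpe, in 4 such pairs, has none.

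The arrays were alike in overall signal, with medians of 3.28 to 3.40 over all probe sets and correlations of 0.962 to 0.988 between arrays over the tested probe sets. Beta cell markers, 8 of 12 listed genes being measured, had a mean of 12.3 to 13.0 on every array, and 5 of 8 alpha cell and 5 of 6 delta and PP cell markers were measured too, so the labelled tissue was present. Acinar markers, from the enzyme-secreting cells around islets, were also high on every array (10 of 13 genes, mean 14.4 to 15.2), so that the samples also held exocrine RNA. Of the acinar genes, Ctrc, Ptf1a and Bhlha15 had SDs within a genotype of 0.52 to 1.37. The other acinar genes, at means of 16.1 to 17.1, had SDs of 0.027 to 0.17. The acinar mean therefore varied mostly through Ctrc, Ptf1a and Bhlha15, here and wherever it is used below. Heterozygous replicates 2 and 5 stood apart in lymphocyte markers (4 of 10 genes measured, mean 6.35 and 6.10, against 4.56 to 5.46 in the other 8 mice), while the T cell genes Cd3e, Cd3g and Cd2 lay below the filter. Stromal markers stood lower in heterozygous islets in 14 of 14 genes, 0 of which passed an adjusted p, with a median difference of -0.717 and list means of 8.54 to 10.2 against 9.37 to 10.3 in wildtype. Over all 10538 genes 4804 were lower. An unadjusted limma p under 0.05 was found for 7 of the 14 and for 387 of the 10538. Acinar markers were lower in 10 of 10 genes (median -0.0457), endothelial in 8 of 9 and myeloid in 5 of 6. Lymphocyte markers were higher in 4 of 4 genes, and neuron and Schwann cell markers in 5 of 5. Men1 itself differed by -0.47 (SE 0.20, 95% interval -0.91 to -0.027), all 5 heterozygous mice lying below the wildtype mean. Men1 did not pass (unadjusted limma p = 0.0396, limma adjusted p = 0.9999, exact two-sided permutation p = 0.0635). All values below are on the log2 scale, means are given with SD over 5 mice, the standard error (SE) belongs to the fitted difference, and differences are heterozygous minus wildtype. Levels of different genes are not compared, since each probe set binds with its own strength.

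None of the 10 transcripts differed between genotypes beyond the spread between mice, and this held for granins, convertase genes and trimming enzymes alike. With limma, 0 of the 10 passed an adjusted p of 0.05, and over all 18567 probe sets the share that passed was 0%. An unadjusted p under 0.05 was found for 0 of the 10 members and for 760 probe sets, 4.09% of all. The lowest unadjusted p among the members was 0.461, for Cpe, and each had an adjusted p of 0.9999. Groups that did not overlap were found for 0 of the 10 members and for 0.700% of all probe sets. Of the members 5 were higher and 5 lower in heterozygous islets, where 43.6% of all probe sets were lower. The differences ranged from -0.145 to 0.108 with a median of -0.00771, beside a median of 0.022 over all probe sets. In a bulk sample, fewer cells of a type and less RNA per cell cannot be told apart, so these values describe the transcript share of the whole preparation.

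**Figure D1:**
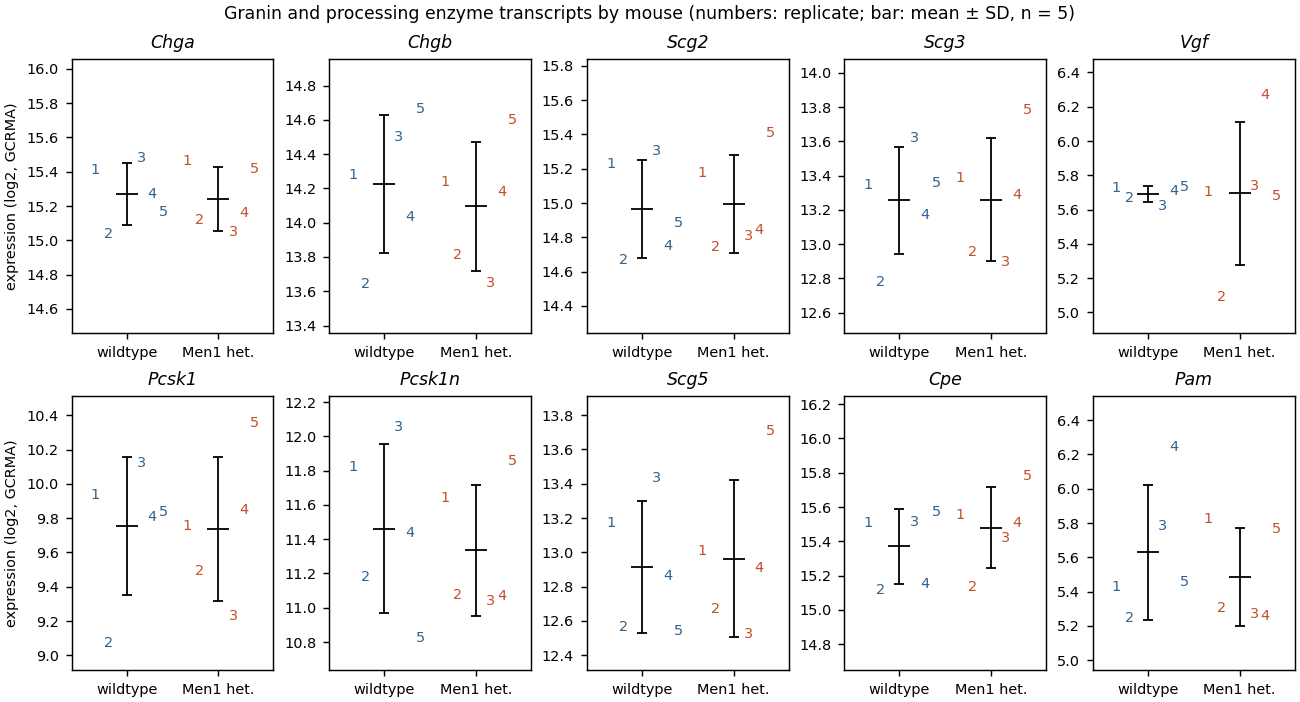
Expression of the 10 transcripts (log2, vertical axis, each panel spanning 1.6 units) in wildtype and heterozygous mice. Numbers are the replicates, the cross bar is the group mean and the error bar the SD (n = 5). The groups overlap in every panel, wildtype replicate 2 is lowest in 7 of the 10, and heterozygous replicate 5 is highest in 5.

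Chga encodes chromogranin A, the founding granin. Its values were 15.41, 15.04, 15.48, 15.27 and 15.17 in wildtype replicates 1 to 5 and 15.46, 15.12, 15.05, 15.16 and 15.42 in heterozygous replicates 1 to 5. The ranges lay almost on top of each other, with both high and low mice in each genotype. The wildtype mean was 15.27 ± 0.18 and the heterozygous mean 15.24 ± 0.19 (SD, n = 5), a difference of -0.031 (SE 0.12). The 95% interval ran from -0.30 to 0.24, or from 0.813-fold to 1.18-fold, the narrowest of the 10 members. The brightest value on any array was 17.58, and arrays can compress differences between signals this bright.

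Chgb encodes chromogranin B, another granin found across endocrine cells. It stood at 14.28, 13.64, 14.50, 14.04 and 14.66 in the 5 wildtype mice and at 14.24, 13.81, 13.65, 14.18 and 14.60 in the 5 heterozygous mice. Each genotype held mice near 13.6 and mice near 14.6. The difference was -0.13 (SE 0.22, 95% interval -0.62 to 0.36), smaller than the SD within either group, 0.40 in wildtype and 0.38 in heterozygous islets.

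Scg2 encodes secretogranin II, the precursor of secretoneurin. Wildtype values were 15.23, 14.67, 15.31, 14.75 and 14.88, and heterozygous values 15.18, 14.74, 14.81, 14.84 and 15.41. In this gene 4 mice, 2 of each genotype, lay above a gap between 14.88 and 15.18, and the other 6 below it. The genotype means were 14.97 ± 0.28 and 14.996 ± 0.29 (SD, n = 5), with a difference of 0.029 (SE 0.17, 95% interval -0.35 to 0.40).

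Scg3 encodes secretogranin III, which binds chromogranin A and cholesterol-rich granule membrane. Its wildtype values were 13.35, 12.78, 13.62, 13.17 and 13.36, and the heterozygous ones 13.39, 12.96, 12.90, 13.28 and 13.78. The lowest mouse was wildtype and the highest heterozygous, and the means were both 13.26, with SDs of 0.31 and 0.36. The difference was 0.0045 (SE 0.20), with a 95% interval of -0.43 to 0.43 that allows changes of up to 1.35-fold either way.

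Vgf encodes a neurotrophin-induced precursor of several neuroendocrine peptides, and its probe set gave a dim signal. Wildtype values were 5.73, 5.67, 5.62, 5.71 and 5.73, and heterozygous values 5.70, 5.09, 5.74, 6.27 and 5.68. The wildtype mice lay within a narrow band, and so did 3 of the 5 heterozygous mice, while heterozygous replicate 2 lay below and replicate 4 above all other mice. The means were both 5.69, but the SD was 0.047 in wildtype and 0.42 in heterozygous islets, a contrast in spread that was noticed after the values were seen and was not tested. The difference in means was 0.0027 (SE 0.18, 95% interval -0.39 to 0.39), and it was -0.141 without heterozygous replicate 4 and 0.154 without heterozygous replicate 2.

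Pcsk1 encodes PC1/3, the convertase that makes the first cuts in proinsulin. The wildtype mice had 9.94, 9.07, 10.12, 9.80 and 9.84, and the heterozygous mice 9.76, 9.49, 9.23, 9.85 and 10.36. It had the widest range over the 10 mice of the members, 1.28 log2 units or 2.43-fold from wildtype replicate 2 to heterozygous replicate 5, both ends lying in different genotypes. The difference between genotypes was -0.018 (SE 0.23, 95% interval -0.53 to 0.50).

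Pcsk1n encodes proSAAS, a granin-like protein whose C-terminal part inhibits PC1/3. Its wildtype values were 11.82, 11.18, 12.05, 11.43 and 10.82, and its heterozygous values 11.64, 11.07, 11.04, 11.07 and 11.85. Wildtype replicates 3 and 5 were the highest and the lowest of all 10 mice, so the wildtype range enclosed the heterozygous one. The means were 11.46 ± 0.49 and 11.33 ± 0.38 (SD, n = 5), with a difference of -0.13 (SE 0.25, 95% interval -0.68 to 0.42).

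Scg5 encodes 7B2, a chaperone that lets the related convertase PC2 mature. It stood at 13.17, 12.57, 13.43, 12.86 and 12.54 in wildtype mice and at 13.01, 12.67, 12.52, 12.91 and 13.71 in heterozygous mice. Heterozygous replicates 3 and 5 were the lowest and the highest of the 10. The difference was 0.048 (SE 0.24, 95% interval -0.48 to 0.58), and it was -0.138 without heterozygous replicate 5. PC2 itself, the product of Pcsk2, is not named in the annotation used and was not analysed here.

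Cpe encodes carboxypeptidase E, which removes basic residues after the convertases have cut. Wildtype values were 15.51, 15.12, 15.51, 15.15 and 15.57, against 15.55, 15.13, 15.42, 15.51 and 15.78 in heterozygous mice. Of the 5 heterozygous mice 4 lay above the wildtype mean, but only replicate 5 lay above every wildtype mouse. The means were 15.37 ± 0.22 and 15.48 ± 0.24 (SD, n = 5), and the difference of 0.11 (SE 0.14, 95% interval -0.20 to 0.42) did not pass (limma p = 0.461, exact two-sided permutation p = 0.532). The smallest p that 252 assignments of 5 of 10 mice can give is 0.00794.

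Pam encodes the monooxygenase that amidates the C-terminus of peptides, and its only annotated probe set was dim. Its values were 5.43, 5.24, 5.78, 6.24 and 5.45 in wildtype and 5.82, 5.31, 5.27, 5.26 and 5.77 in heterozygous islets. Wildtype replicate 4 lay above all other mice, the next being 5.82. The difference was the most negative of the 10 members, -0.15 (SE 0.20, 95% interval -0.58 to 0.29), and it was 0.0077 without wildtype replicate 4.

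**Figure D2:**
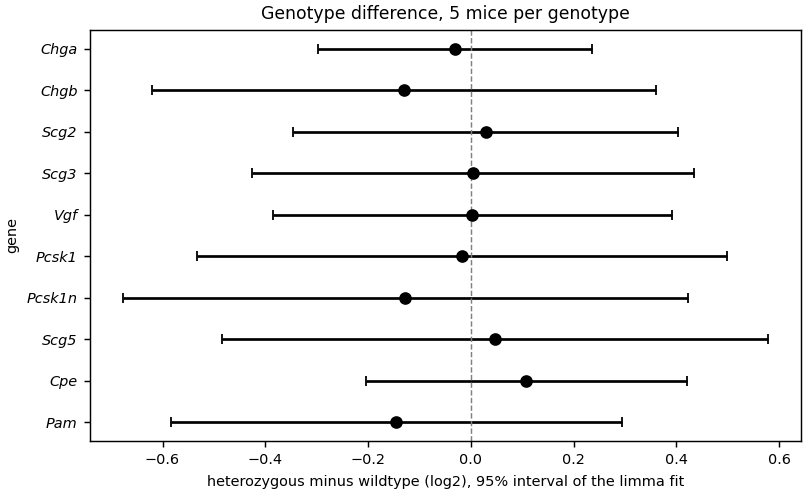
Difference between genotypes for each gene (heterozygous minus wildtype, log2, horizontal axis), with points for the estimate and bars for the 95% interval of the limma fit over 5 mice per genotype. Every interval spans 0, the estimates lie between -0.145 and 0.108, and the interval is narrowest for Chga and widest for Pcsk1n.

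Without heterozygous replicates 2 and 5, the mice high in lymphocyte markers, the differences ranged from -0.213 to 0.211 and again 0 of the 10 passed (lowest limma adjusted p = 0.9996). In that setting 2 members were higher and 8 lower. The part of the lymphocyte markers in these values was not tested. With the stromal mean as a covariate 0 of the 10 passed as well, at differences of -0.174 to 0.203. With the acinar mean as a covariate 1 member was higher and 9 lower, from -0.291 to 0.0429, and 0 passed (lowest limma adjusted p = 0.7809). There Pcsk1n moved from -0.13 to -0.29 and Chgb from -0.13 to -0.24. The acinar mean itself was 14.85 in heterozygous and 14.96 in wildtype islets, and r with it was negative for all 10 members. The part of this imbalance in the shift was not tested.

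For each member the SD within genotypes exceeded the difference between the genotype means, and most of the members varied together. Wildtype replicate 2 was among the 3 lowest mice in 9 of the 10 genes, and heterozygous replicates 2 and 3 in 7 each. At the other end, wildtype replicate 3 and heterozygous replicate 5 were among the 3 highest in 8 genes each. Between the lowest and the highest mouse the change was 1.36-fold for Chga, 1.67-fold for Scg2, 2.03-fold for Chgb and 2.35-fold for Pcsk1n. The SD within genotypes was 0.41 for Pcsk1, 0.44 for Pcsk1n and 0.42 for Scg5, above that of 84 to 86.9% of all 18567 probe sets. It was 0.18 for Chga, above that of 28%, and 0.23 for Cpe, above that of 43.3%. For the remaining members it lay above that of 61.4 to 81.4%.

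Of the 45 pairs of members, 19 were correlated over the 10 mice, all positively, at a Benjamini-Hochberg adjusted permutation p under 0.05 (100000 permutations, two-sided). With Spearman's rho 20 pairs passed, 17 of them among the 19, and with deviations from each genotype's own mean 20 passed, all 19 among them. An r of at least 0.8 was reached by 17 of the 45 pairs, or 37.8%, where 1.03% of all pairs among the 10538 genes measured reached it. The median r was 0.637 over the members and 0.047 over all pairs of genes. All 19 pairs lay among 8 genes, and Vgf and Pam took part in none of them. These 8 genes form 28 pairs, with r as low as 0.39 for Pcsk1n and Cpe and 0.43 for Chgb and Pcsk1n. By rho Pam passed with Chga (rho = 0.81, permutation p = 0.00674, adjusted p = 0.0217), and Vgf passed with no member.

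The tightest pair was Scg3 and Pcsk1, a granin and the convertase (r = 0.97, permutation p = 5e-05, adjusted p = 0.00225; rho = 0.84, permutation p = 0.00374, adjusted p = 0.0153; n = 10). Without the 2 mice farthest from the median of Scg3 it was r = 0.93. Chgb and Scg3 followed (r = 0.92, permutation p = 0.0004, adjusted p = 0.00369; rho = 0.90, permutation p = 0.00066, adjusted p = 0.00817), with r = 0.84 without the 2 farthest mice. Scg2 and Scg5 stood at r = 0.90 (permutation p = 0.00033, adjusted p = 0.00369; rho = 0.77, permutation p = 0.0129, adjusted p = 0.0342), and at r = 0.77 without the 2 farthest. The inhibitor gene Pcsk1n went with the chaperone gene Scg5 (r = 0.89, permutation p = 0.00066, adjusted p = 0.00495; rho = 0.89, permutation p = 0.00109, adjusted p = 0.00817; r = 0.86 without the 2 farthest). Pcsk1n and the convertase gene Pcsk1, whose product it inhibits, did not pass (r = 0.64, permutation p = 0.0509, adjusted p = 0.0887; rho = 0.58, permutation p = 0.0881, adjusted p = 0.152).

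**Figure D3:**
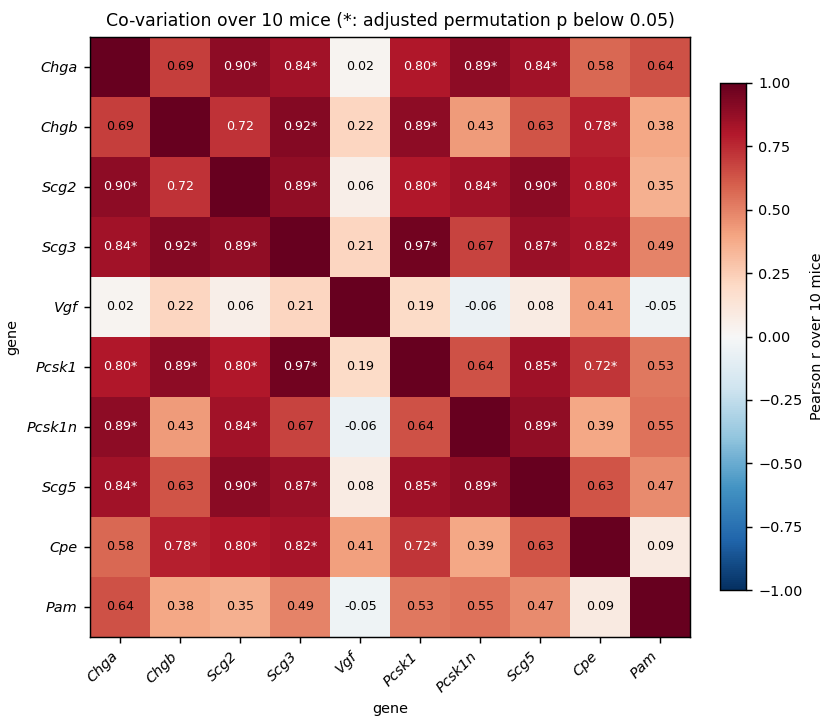
Pearson r between the log2 values of each pair of the 10 genes over 10 mice, on a colour scale from -1 to 1, with r printed in each cell and an asterisk at an adjusted permutation p below 0.05. Among 8 genes 19 of the 28 pairs have an asterisk, with r from 0.39 (Pcsk1n and Cpe) to 0.97 (Scg3 and Pcsk1). The Vgf row stays between -0.06 and 0.41, and the Pam row has no asterisk.

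Single mice set several of these values. Wildtype replicate 5 had the highest Chgb and the lowest Pcsk1n of the 10 mice, and without it Chgb and Pcsk1n rose from r = 0.43 to r = 0.85, and Chgb and Scg5 from 0.63 to 0.97. That mouse also had the highest acinar mean, 15.2, and its part in this was not tested. Wildtype replicate 4 set Pam apart: without it Pam went with Chga at r = 0.90 (0.64 with it) and with Scg2 at r = 0.87 (0.35 with it). These mice were picked after their values were seen. Without heterozygous replicate 5 the number of pairs that passed fell to 14, and without heterozygous replicates 2 and 5 it was 8 of 45 (exact permutation over 8 mice).

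The 4 mice above the gap in Scg2, which are wildtype replicates 1 and 3 and heterozygous replicates 1 and 5, also lay above the widest gap in Chga (15.27 to 15.41). Over the other 6 mice, where the range is smaller, 18 of the 19 pairs kept a positive r, with a median of 0.660, and 6 reached 0.8. Scg3 and Pcsk1 stood at r = 0.96 and Chgb and Scg3 at r = 0.93 over these 6. Scg2 and Pcsk1n turned from r = 0.84 over 10 mice to -0.65 over the 6, and Scg2 and Scg5 dropped from 0.90 to 0.05. Chga dropped from 0.90 to 0.30 with Scg2 and from 0.89 to 0.39 with Pcsk1n, and Scg3 from 0.87 to 0.45 with Scg5. Other pairs of these genes did not drop so far: Scg2 went from 0.80 to 0.94 with Cpe and from 0.89 to 0.81 with Scg3, and Chga from 0.80 to 0.87 with Pcsk1. The split was made in the values of Scg2, and it narrows the range of Scg2 and Chga by construction, so a drop in their pairs is a description and does not show which mice carry a relation.

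Those 4 mice also had the highest beta cell marker means, 12.7 to 13.0 against 12.3 to 12.6 in the other 6, and acinar means of 14.4 to 14.9 against 14.8 to 15.2. By r over the 10 mice 6 of the 10 members went with the beta cell mean at an adjusted p under 0.05 over 110 relations (10 members against 10 marker lists and 1 RNA quality measure). Scg2 led (r = 0.95, permutation p = 8e-05, adjusted p = 0.00367; rho = 0.94, permutation p = 0.00017, adjusted p = 0.00467), and it kept r = 0.90 without the 2 mice farthest from the median. Chga stood at r = 0.93 (permutation p = 0.0001, adjusted p = 0.00367; rho = 0.96, permutation p = 7e-05, adjusted p = 0.00385), with r = 0.95 without the 2 farthest. The other 4 were Scg3, Scg5, Pcsk1 and Pcsk1n, with r from 0.84 to 0.93. By rho 6 members passed as well, 4 of them the same: Chgb and Cpe passed in place of Pcsk1n and Scg5. Over the 6 mice below the gap r was 0.89 for Scg3 and Pcsk1, 0.83 for Chga and 0.73 for Scg2, but 0.34 for Scg5 and -0.097 for Pcsk1n. Markers of delta and PP cells, the somatostatin and pancreatic polypeptide cells, passed with 5 members by r and 4 by rho. Those of alpha cells, the glucagon cells, passed with 0 by either, although r was positive for all 10 members, from 0.33 to 0.64. With deviations from each genotype's own mean, r with the alpha cell mean was 0.36 to 0.75.

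Acinar markers ran the other way, with a negative r for all 10 members. By r 4 passed, Scg2, Scg3, Pcsk1 and Scg5, but by rho only Scg5 and Pcsk1n did. The adjusted permutation p of rho was 0.0984 for Scg2, 0.134 for Scg3 and 0.0566 for Pcsk1, and that of r was 0.0626 for Pcsk1n. For Scg5 r was -0.96 (permutation p = 2e-05, adjusted p = 0.0022; rho = -0.98, permutation p = 4e-05, adjusted p = 0.00385), and -0.92 without the 2 mice farthest from the median. Over the 6 mice below the gap Scg5 kept r = -0.89, while Pcsk1 had -0.49, Scg3 -0.37 and Scg2 -0.16. Duct markers, 4 of 7 measured, had a negative r with 9 members and passed with 3 by r and 4 by rho. Stromal, endothelial, lymphocyte, myeloid, neuron and Schwann cell markers and the 3′ minus 5′ difference of the actin and Gapdh control probe sets, a measure of RNA shortening, passed with 0 members each by r and by rho, although r reached 0.676 with neuron and Schwann cell markers and -0.634 with the control difference.

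After the beta cell mean was taken out of each gene, 2 of the 45 pairs still reached r = 0.8, Scg3 with Pcsk1 (0.90) and Chgb with Scg3 (0.86). After the acinar mean was taken out 5 did. How much endocrine against exocrine material in a preparation accounts for the shared variation was not tested beyond these values.

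**Figure D4:**
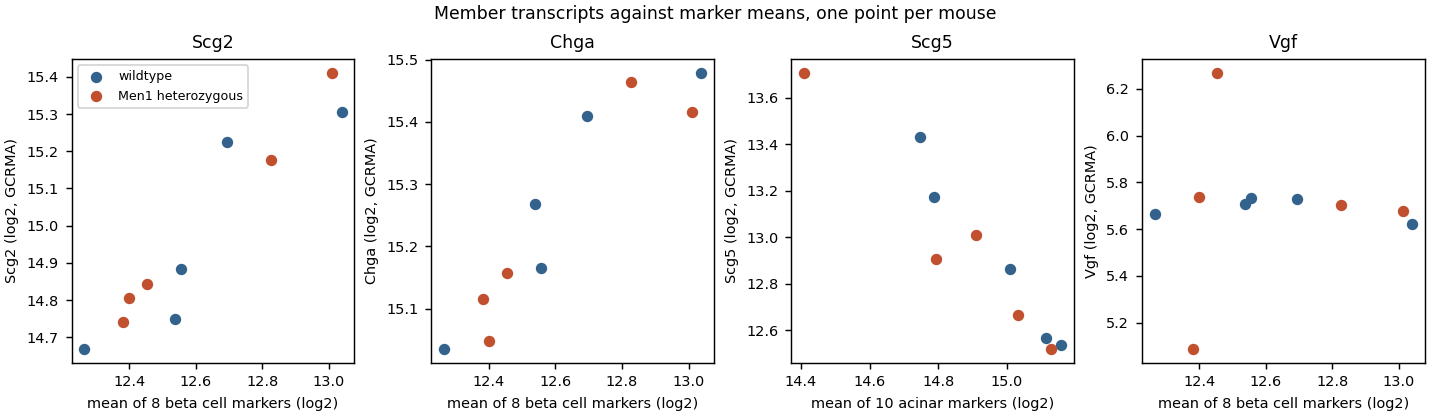
Scg2, Chga and Vgf against the mean of 8 beta cell markers and Scg5 against the mean of 10 acinar markers (all log2), 1 point per mouse, coloured by genotype. Scg2 and Chga rise with the beta cell mean (r = 0.95 and 0.93), Scg5 falls with the acinar mean (r = -0.96), and Vgf shows no such order (r = 0.02).

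For each member the 3 genes of most similar pattern were taken from the other 10528 genes, by r over the 10 mice. Scg5 was closest to Resp18, an endocrine granule protein gene (r = 0.99), Ucn3, the peptide urocortin 3 of mature beta cells (0.98), and Bex3 (0.97). Pcsk1n was closest to Ece1, endothelin-converting enzyme (0.98), Cplx2, a complexin that binds the fusion machinery (0.97), and Ier3ip1 (0.97). Scg3 was closest to Nckap1, of an actin-regulating complex (0.98), Cltrn, the beta cell membrane protein collectrin (0.97), and Cadps, which primes dense-core vesicles (0.97). Pcsk1 was closest to Atp6v0e2, a subunit of the proton pump that acidifies granules (0.97), Nckap1 (0.96) and Ddx41 (0.95).

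Scg2 was closest to Fam122a (r = 0.97), Enho, which encodes the secreted peptide adropin (0.96), and the aspartyl protease gene Bace2 (0.96). For Chga the 3 were Rian, a maternally expressed noncoding RNA (0.96), Maged1 (0.96) and the ubiquitin ligase gene Rnf130 (0.95), and for Chgb they were Fhdc1 (0.98), E2f6 (0.98) and Ndfip1 (0.97). Cpe was closest to Lhfpl4 (0.96), Macir (0.95) and Klf12 (0.93). The lists of the dim genes were weaker. Pam reached 0.89 with Sec22a, 0.88 with Ylpm1 and 0.87 with Cct8. Vgf reached 0.95 with Lrsam1, 0.93 with Wdhd1 and 0.92 with Trappc11, where rho was 0.56, 0.62 and 0.67. An r of at least 0.8 was reached with 5.04% of genes for Scg3, 4.15% for Pcsk1, 3.82% for Scg5, 3.50% for Chgb, 2.75% for Scg2, 1.98% for Cpe, 1.75% for Chga, 1.68% for Pcsk1n, 0.313% for Vgf and 0.237% for Pam.

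Among 35 measured genes of the granule membrane and its formation, 10 reached an r of 0.8 with Scg3, 8 with Scg2, 8 with Pcsk1n, 7 with Chga and 0 with Vgf or Pam, to be read against the shares above. Cltrn did so with 7 members, and Bace2, Cadps, the zinc transporter gene Slc30a8 and the granule phosphatase gene Ptprn2 with 5 each. These genes, like the other genes named below by their r, were chosen after their values were seen. Nucb2, the precursor of nesfatin, ran against 4 members at r of -0.8 or below. None of the 35 passed between genotypes, 23 were higher and 12 lower with a median difference of 0.0307, and the 2 of smallest p were Ap3b1 (0.23, SE 0.088) and Vps41 (0.17, SE 0.088), both of the sorting machinery. Over the 10538 genes the median difference was 0.0143, with 5734 higher and 4804 lower.

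Of 19 measured processing enzymes outside the members 12 were higher, 7 lower and 0 passed, with a median of 0.0453. Cpm, a membrane carboxypeptidase, had a heterozygous mean of 6.97 ± 0.27 and a wildtype mean of 6.48 ± 0.20 (SD, n = 5; difference 0.48, SE 0.15, limma adjusted p = 0.9999). Pcsk5, the convertase PC5/6, stood at 4.29 ± 0.33 against 4.92 ± 0.60 (-0.63, SE 0.27, limma adjusted p = 0.9999), a dim signal close to the filter threshold of 4. With the members, Cpq went along at an r of 0.8 or more for 6 and Ece1 for 4, while the insulin-degrading enzyme gene Ide ran against 3.

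Of 12 measured prohormone genes 5 were higher, 7 lower and 0 passed, with a median of -0.0445, and the 2 of smallest p were Penk, the enkephalin precursor (-0.61, SE 0.25), and Adm, adrenomedullin (-0.42, SE 0.18). These 2 gave dim signals. Penk had a heterozygous mean of 5.27 and a wildtype mean of 5.88. Adm had 4.02 and 4.44, close to the filter threshold of 4. Ucn3 and Sst, the somatostatin gene, reached an r of 0.8 with 6 members each, and Gal, the galanin precursor, ran against 4 at -0.8 or below. Ins2 and Gcg, the insulin and glucagon genes, reached an r of 0.8 with 0. Both were bright, at genotype means of 16.2 to 16.4, and varied little, with SDs of 0.024 to 0.073. Arrays can compress such signals, so the 0 does not show that these transcripts vary apart from the members. Slc30a8 and several of these hormone genes are also among the cell type markers used above, so the counts overlap.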

How the data were processed

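RNA from islets of 10 mice was amplified in a two-cycle reaction from 100 ng and hybridised to Affymetrix arrays, per the labels' protocols. Per the submitters' processing notes, the authors used GCRMA to make the deposited log2 values. This method corrects for background from the probes' base content, then normalizes and summarises, and it draws dim probe sets to a common low value. The scale was read from the values (0.654 to 17.58), and no version or genome build is given in the sources used here. The number of arrays limits the precision.

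After 64 control probe sets were left out, 45037 remained, of which 34945 carry 1 symbol, 932 several and 9160 none in the annotation, and those with several were not named. All 10 members matched RefSeq symbols by gene identifier. Genotypes were compared in R 4.3.3 by limma 3.58.1 (lmFit, then eBayes) with no covariate, adjusted by Benjamini-Hochberg over 18567 probe sets. The probe set with the highest mean stood for a gene. Genes most like a member were chosen by r, list genes by smallest p. Correlations used 100000 permutations, or all permutations below 10 mice, in Python 3.11.15 with numpy 2.4.6. Motifs were searched on both strands, and protein sequences were not used here.

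The members and lists were chosen with earlier results of these data known. Tested on simulated data in which 200 of 18567 probe sets changed by 1.5-fold to 4-fold, the comparison recovered 34.2% of 1.5-fold and 75% of 2-fold changes. The simulated noise was independent between probe sets, unlike that of the arrays, where genes varied together. The rates are averages over randomly chosen probe sets and not rates for the members. The SD within genotypes had a median of 0.246 over all probe sets, and was 0.44 for Pcsk1n and 0.18 for Chga.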

Additional observations from a re-analysis of the deposited data

How the results depend on the processing

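With 5 mice per genotype, intervals of the members reached 0.27 to 0.55 log2 units to either side, so small changes could not be seen, and bright members may be compressed. The count of members and of all probe sets that passed was 0 under every alternative, the replicate block and the beta cell mean as a covariate (added after the data were seen) among them. At an unadjusted p under 0.05 the alternatives that tested the same 18567 probe sets gave 599 to 1250. The stricter filter gave 508 of 12867, and no filter on dim probe sets gave 1097 of 45037. With the replicate block the count was 0 of 10 members and 0 of 18567 probe sets (786 at an unadjusted p under 0.05). Deviations of same-numbered mice correlated at r = 0.108, -0.0433, -0.284, 0.032 and 0.106 for numbers 1 to 5. Of the 10 mice 2 correlated best with their own number. No pairing by number was seen in these values, which cannot exclude one.

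Of 218 member differences under alternatives, 176 kept their sign and 42 turned, reaching -0.141 (Vgf without heterozygous replicate 4), about the size of the most negative member difference, -0.145. Many of the 176 were bound to keep it. A changed filter, the trended prior variance, the replicate block and the mean of kept probe sets leave each difference at its main value. The 176 therefore overstates how stable the signs were. None of the 218 was called, with a lowest limma adjusted p of 0.7809. The cause was not tested. After a further quantile normalization Chga stood at 0.0125, Scg3 at -0.0113 and Vgf at -0.0293. After median centring Scg3 stood at -0.0115 and Vgf at -0.0133. With array weights Scg3 stood at -0.0016 and Scg5 at -0.0224. With the acinar mean as a covariate Scg2 stood at -0.0789, Scg3 at -0.122, Vgf at -0.0234 and Scg5 at -0.1391, which left 1 member higher and 9 lower, and with the stromal mean Scg2 at -0.0462 and Pcsk1 at 0.0363. Without heterozygous replicates 2 and 5, Scg2 stood at -0.0244, Scg3 at -0.0668 and Scg5 at -0.102. Leaving out single mice gave -0.0904 to 0.0203 for Chga, -0.275 to -0.0179 for Chgb, -0.0748 to 0.1136 for Scg2, -0.1254 to 0.096 for Scg3, -0.141 to 0.1544 for Vgf, -0.1883 to 0.108 for Pcsk1, -0.2876 to 0.0203 for Pcsk1n, -0.1384 to 0.177 for Scg5, 0.0327 to 0.1949 for Cpe and -0.2421 to 0.0077 for Pam. Vgf and Pam lay below the stricter filter, and the mean of all kept probe sets is the same as the main value, since each member has 1.

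The 19 pairs that passed became 14 to 25 without single mice, 8 without heterozygous replicates 2 and 5 and 10 without the 2 mice farthest from the median, where fewer mice also leave less to reach the threshold. The 17 pairs with r of at least 0.8 became 11 to 22 without single mice, 11 after median centring, 11 without heterozygous replicates 2 and 5, 10 without the 2 farthest mice, 2 with the beta cell mean and 5 with the acinar mean taken out, and 7 over the 6 mice below the Scg2 gap, the last 3 settings being added after the data were seen. Of the 19 pairs, 0 turned negative under the alternatives to the count that passed, and 1, Scg2 with Pcsk1n, did so over the 6 mice.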
